A study of Mus musculus with 46 samples.

Results

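H3.3 peaks at gene ends were taken as the H3.3 peaks of any library whose midpoint lay from 100 bp upstream to 1 kb downstream of a protein-coding transcript end and over 5 kb from any transcription start site (TSS), on mouse genome build mm9 with GENCODE vM1 transcripts. There were 19099 such peaks among 1022574 H3.3 peaks in 16 libraries, or 1.87% of all H3.3 peaks and 2.99% of the 638557 peaks over 5 kb from any TSS. Merged over libraries they formed 6463 regions. The cells were mouse embryonic fibroblasts (MEFs) from E13.5 embryos that carry IRES-EGFP downstream of Oct4, profiled by ChIP-seq for H3.3, H3K4me3 and H3K36me3 during 2 induced changes of cell fate. For reprogramming, retroviral Oct4, Sox2, Klf4 and c-Myc were delivered, and H3.3 was mapped in D0 fibroblasts, D3 cells, the successful fractions D6T-, D9T- (Thy-1 negative), D12S+ and D16S+ (SSEA-1 positive), the unsuccessful fractions D6T+, D9T+, D12S- and D16S-, iPSCs and the ES cell line ESD3. For transdifferentiation towards hematopoietic cells, Scl (Tal1), Lmo2, Runx1 and Bmi1 were delivered, and H3.3 was mapped in MEF, D4, cKit+ and cKit- cells. By the study's methods, the fibroblasts were first sorted free of hematopoietic cells. After delivery they were grown with inactivated OP9 stromal cells and a cytokine cocktail. H3K4me3 and H3K36me3 were mapped at the 7 time-points D0, D3, D6T-, D9T-, D12S+, D16S+ and iPSCs. Every group was a single library, so no 2 groups could be tested against each other, and the tests below ask whether gene ends differed from other sequence in the same direction across libraries.

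H3.3 is a histone H3 variant that is placed into chromatin outside replication, by Hira at transcribed genes and by Atrx with Daxx at heterochromatin. H3K36me3 is laid down over gene bodies by Setd2, which travels with elongating RNA polymerase II. At the gene end the nascent RNA is cut downstream of a poly(A) signal, while the polymerase continues past the cleavage site before it is released. A midpoint past the most downstream end of a gene thus lies in sequence that the polymerase can still transcribe after cleavage. The windows also include ends inside genes, where a midpoint past the end can lie in the body of longer transcripts.

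To show what such an end looks like, the last 30 bases before the annotated end are given for 10 ends, from the genes bound at their end in most libraries and from genes bound at the fibroblast or the pluripotent stages. Each is written 5′ to 3′ on the transcribed strand of mm9. Capitals mark the poly(A) signal AATAAA or its common variant ATTAAA, and a sequence without capitals holds neither.

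Pcnp, chr16:56015619-56015648, minus strand: taaaattacAATAAAttttgtcaaacttgg
1700081L11Rik, chr11:104194543-104194572, minus strand: gccaatagggatttttcttctttgaggtgt
Zmynd8, chr2:165609654-165609683, minus strand: atttgtATTAAActtaaatatcttttttga
Jarid2, chr13:45016312-45016341, plus strand: cctcttgtctattttttctcttcatgtttt
Vps29, chr5:122813250-122813279, plus strand: tgtgtatgttttctcttctctggtAATAAA
Sars, chr3:108229530-108229559, minus strand: gccacgcAATAAAgcatctctggggagggc
Hsph1, chr5:150416862-150416891, minus strand: ccATTAAAgctactggggcaacctaaagac
Exosc7, chr9:123045218-123045247, plus strand: gtaaaAATAAAgtctattttttttggtcca
Shcbp1, chr8:4735980-4736009, minus strand: atggctgtgtattatataaagtgtacttga
Vsig2, chr9:37351756-37351785, plus strand: catgttaataATTAAAgcctaaaccatgcc

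Of these 10 ends, those of 1700081L11Rik, Jarid2 and Shcbp1 held neither hexamer in the last 30 bases. Of all 16 ends read for the recurrent, fibroblast and pluripotent groups, 8 held neither, so the ends shown are richer in hexamers than the groups they come from. Several genes have more than 1 annotated end, and the end printed is the one with a gene-end peak in most libraries. Over all 23283 ends that could hold such a peak, 54.5% carried either hexamer in the last 40 bases. The share was 71.4% (95% Wilson interval 65.0 to 77.1) of the 210 ends bound in 8 or more libraries, 57.5% (56.4 to 58.5) of the 9188 ends bound in 1 to 7, and 52.4% (51.5 to 53.2) of the 13885 bound in none. Transcript models tagged in the annotation as having no defined end made up 4.29%, 10.0% and 11.4% of these classes. Without them the shares were 74.1%, 63.4% and 58.5%, in the same order. With all ends kept, 62.4%, 51.0% and 50.4% were the most downstream end of their gene. The part of this in the hexamer shares was not tested. A match is a description of the sequence and not evidence of a used site.

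The H3.3 libraries held 18.7 to 91.8 M tags, of which 1.65% (cKit+) to 37.2% (D4) lay in peaks, and they gave 484 (cKit-) to 1756 (D12S-) gene-end peaks. The labels were checked at the TSSs of 7 marker genes per cell type. D0 carried H3.3 at 7 of 7 fibroblast markers and 1 of 7 pluripotent markers, while ESD3 carried 0 and 7. The library labelled cKit+ had H3.3 at 1 of 7 hematopoietic markers (Tal1, a delivered factor) and 3 of 7 fibroblast markers. The cKit- library had 4 (Itga2b, Vav1 and the delivered Runx1 and Tal1) and 3. D0 and MEF each had 2 of 7 hematopoietic markers, Itga2b and Runx1. All intervals below cover counting error only.

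Gene ends held more H3.3 peaks per Mb than the sequence on either side of them. The windows span 18.9 Mb, or 0.886% of all sequence over 5 kb from a TSS. Each library was compared with the upstream flank (100 bp to 5 kb before an end, inside a gene), the downstream flank (1 to 5 kb past an end, outside genes) and the remaining gene interior. D0 had 79.4 gene-end peaks per Mb, against 72.7 in the upstream flank, 63.5 in the downstream flank and 46.5 in the interior. Over the 16 libraries the density at gene ends ran from 25.6 (cKit-) to 92.7 (D12S-) peaks per Mb. It was 1.09 (D0) to 1.55 (D16S+) times that of the upstream flank, 1.21 (MEF) to 1.52 (D12S+) times that of the downstream flank and 1.54 (D4) to 3.22 (D16S+) times that of the interior.

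The order held in 16 of 16 libraries for all of these comparisons. On the log2 scale the mean ratio was 0.32 ± 0.13 (SD, n = 16) to the upstream flank, 0.46 ± 0.11 to the downstream flank, 1.099 ± 0.28 to the interior and 1.79 ± 0.24 to all TSS-distal sequence. Each gave p = 3.05e-05 in a 2-sided exact sign-flip permutation test over libraries, the smallest that 16 libraries allow, and an adjusted p of 0.000153 over the 20 tests made. These p-values measure the spread between libraries of different stages, which are not biological replicates. GC content was 43.4% at gene ends, 44.2% and 43.6% in the upstream and downstream flanks and 42.0% in the interior.

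**Figure D1:**
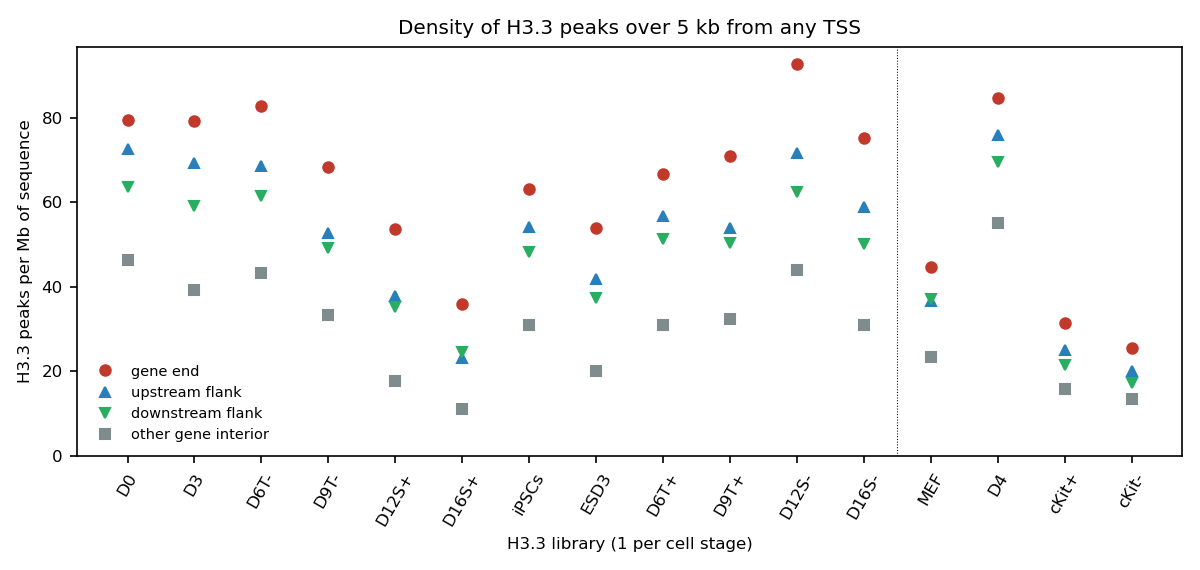
H3.3 peaks per Mb of sequence over 5 kb from any TSS, for each of the 16 libraries (1 point per library and class), at gene ends, in the upstream and downstream flanks and in the other gene interior, with a dotted line between the reprogramming and the transdifferentiation libraries. The gene-end point lies above the flank points in 16 of 16 libraries, from 25.6 peaks per Mb in cKit- to 92.7 in D12S-.

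Score per kb of the called peaks differed little between classes. Only peaks that passed the caller's limits have a score, and in D3 the median was 13.16 in both flanks and in the interior. Close medians therefore cannot show whether H3.3 signal over the sequence was equal. The median score per kb, the authors' tag count scaled to 10 M tags divided by peak length, was 13.4 over all gene-end peaks, with 10.5 at the 10th and 16.4 at the 90th percentile. The log2 ratio to the upstream flank was 0.0097 ± 0.0097 and positive in 13 of 16 libraries (adjusted p = 0.00262, exact permutation test). Against the downstream flank it was -0.0027 ± 0.0087 (adjusted p = 0.325, exact permutation test) and against the interior -0.0038 ± 0.014 (adjusted p = 0.454, exact permutation test). Fold over input differed from the interior by 0.027 ± 0.027 on the log2 scale, higher in 12 of 16 libraries (adjusted p = 0.00359, exact permutation test). Its log2 differences from the flanks averaged 0.00048 and 0.0024, within their SDs of 0.017 and 0.019. With peaks of at least 4-fold over input the calls for score against the upstream flank (0.0099, adjusted p = 0.117) and fold against the interior (-0.00045, adjusted p = 0.969) were lost in the exact permutation test.

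Peaks at gene ends were longer, with a median of 772 bp over all libraries. The log2 ratio of median lengths was 0.15 ± 0.11 to the upstream flank and 0.20 ± 0.13 to the interior, each above 0 in 14 of 16 libraries (adjusted p = 0.000407 for both, exact permutation test). To the downstream flank it was 0.07 ± 0.09, above 0 in 10 of 16 (adjusted p = 0.00651, exact permutation test). That last difference was 0.015 (adjusted p = 0.674, exact permutation test) when peaks had to lie 10 kb from a TSS.

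Within the window the midpoints were spread over its whole length. Of all gene-end peaks 91.3% had their midpoint past the end, where 90.9% of the window lies, and the median midpoint was 439 bp past it. In D0 there were 134 midpoints per 100 bp just upstream of the end and 126 to 146 per 100 bp in the 4 downstream bins. The peak itself covered the annotated end in 55.7% of cases. By midpoint, 53.7% lay outside protein-coding genes, 24.1% in an untranslated exon, 18.3% in an intron and 3.89% in a coding exon, and 67.3% were nearest to the most downstream end of their gene.

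Around isolated ends H3.3 and H3K36me3 had their highest coverage at different places. These were the most downstream ends of 6133 genes of at least 15 kb with no other protein-coding gene within 10 kb downstream, and TSS proximity was not filtered here. The share of ends covered by an H3.3 peak was highest, within 5 kb on either side, at 250 to 1500 bp past the end in every one of the 16 libraries. In D0 it was 8.36% at 5 kb upstream, 11.2% at 1 kb upstream and 10.6% at the end. Past the end it was 12.4% at 1 kb and 8.36% at 5 kb. In D12S- it was 9.52% at 5 kb upstream, 12.7% at 1 kb upstream, 14.6% at 500 bp past the end and 8.05% at 5 kb past it. Coverage at the end itself was lower than at 1 kb upstream in D0, D3, iPSCs, MEF and D4, and higher in the other libraries.

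H3K36me3 had its highest coverage before the end, at 1750 to 3750 bp upstream in the 7 libraries, and then declined. In D0 it covered 27.1% of ends at 5 kb upstream, 24.7% at the end, 18.6% at 1 kb past it and 4.14% at 5 kb past it. Coverage at the end was 4.82 to 9.93 times that at 5 kb past it, where the same ratio for H3.3 was 1.09 (D4) to 1.75 (cKit-). H3K4me3, the promoter mark, covered 0.228% (D16S+) to 1.60% (D0) of these ends.

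**Figure D2:**
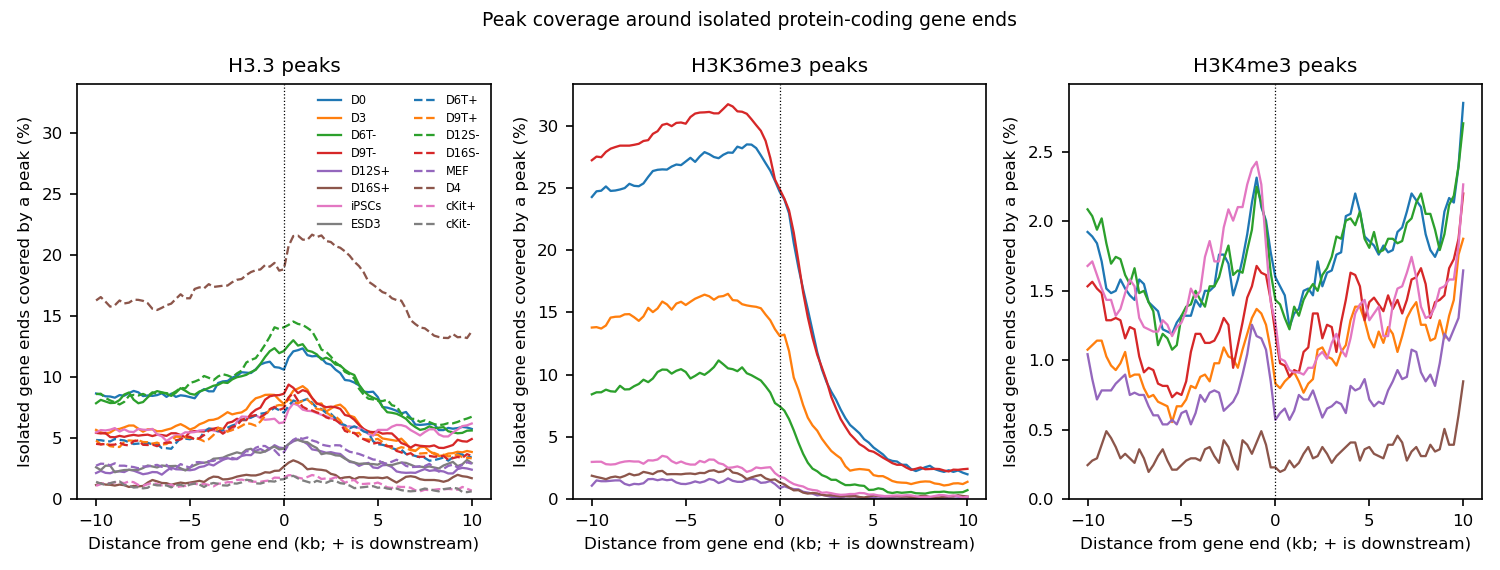
Share (%) of 6133 isolated gene ends covered by a peak against distance from the end in kb (negative is upstream), 1 line per library, in separate panels for H3.3, H3K36me3 and H3K4me3. H3.3 has its highest values at 250 to 1500 bp past the end in every library, whereas H3K36me3 is highest 1750 to 3750 bp upstream and falls to 4.14% at 5 kb past the end in D0.

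Gene-end H3.3 peaks overlapped H3K36me3 more often than H3.3 peaks downstream of genes or in the rest of the gene body. An H3K36me3 peak of the same time-point overlapped 67.2%, 54.0%, 40.6% and 68.9% of gene-end peaks at D0, D3, D6T- and D9T- respectively, and 10.7%, 11.1% and 20.8% at D12S+, D16S+ and in iPSCs. In the downstream flank the same 7 values were 34.2%, 22.5%, 15.6%, 34.1%, 2.76%, 3.32% and 7.86%. By definition that flank lies outside protein-coding genes, whereas 53.7% of gene-end midpoints did. The part of this in the difference was not tested. The difference from the downstream flank was 21.8 ± 12.0 percentage points (SD, n = 7) and from the interior 19.6 ± 12.7, above 0 at 7 of 7 time-points, with p = 0.0156 for each, the smallest that 7 time-points allow, and adjusted p = 0.026 (exact permutation test). Leaving out D6T-, D9T-, D12S+ or D16S+ in turn gave 19.7 to 24.2 and 17.0 to 22.1 points with adjusted p = 0.0521 (exact permutation test), since 6 time-points cannot go below an unadjusted 0.0313.

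From the upstream flank, where the 7 shares were 66.7%, 53.8%, 38.7%, 66.6%, 11.6%, 12.8% and 22.9%, the difference was 0.022 ± 1.70 percentage points, above 0 at 4 of 7 time-points (adjusted p = 1, exact permutation test). That value depended on how overlap was counted. With the mark covering at least 0.5 of the peak it was -1.42 (adjusted p = 0.0446, exact permutation test), with H3.3 peaks of at most 1 kb -2.36 (adjusted p = 0.0391, exact permutation test), and at the most downstream end of each gene -3.96 (adjusted p = 0.0446, exact permutation test). The enrichment of the H3K36me3 libraries moved with the overlap: 31.3%, 14.1%, 7.50% and 42.4% of tags lay in H3K36me3 peaks in D0, D3, D6T- and D9T-, against 1.07%, 1.99% and 2.88% in D12S+, D16S+ and iPSCs. The part of library enrichment in the lower overlap of the late stages was not tested. The fragment length of the D6T- H3K36me3 library was 444 bp, against 120 (D0) to 158 bp (D12S+ and iPSCs) in the other H3K36me3 libraries. Its part in the D6T- overlap was not tested either.

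Overlap with H3K4me3 was low, from 4.28% (D16S+) to 15.1% (iPSCs) of gene-end peaks. It was 1.53 ± 1.21 percentage points lower than in the downstream flank, lower at 7 of 7 time-points (adjusted p = 0.026, exact permutation test). Against the interior the difference was -3.30 ± 2.50, below 0 at 6 of 7 time-points (adjusted p = 0.0481, exact permutation test). Leaving out D6T-, D9T-, D12S+ or D16S+ took the adjusted p to 0.0521 for the downstream flank and 0.0962 for the interior, and for the interior leaving out D0 or D3 took it to 0.0913 (exact permutation test). Both calls were also lost with H3.3 peaks of at most 1 kb, at -1.31 (adjusted p = 0.0694) and -2.09 (adjusted p = 0.0938) in the exact permutation test. Against the upstream flank it was -0.12 ± 1.54 (adjusted p = 1, exact permutation test).

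Within the window, H3K36me3 overlap of peaks with a midpoint up to 100 bp before the end exceeded that of peaks 750 to 1000 bp past it at 6 of 7 time-points, as a description without a test. The shares were 81.4% and 60.2% in D9T-, 52.5% and 34.4% (D6T-), 68.7% and 62.3% (D0), 53.9% and 51.8% (D3), 9.78% and 7.30% (D12S+), and 23.8% and 15.9% in iPSCs, whereas D16S+ had 9.52% and 9.62%. Gene-end peaks that carried H3K36me3 were longer than those that did not, with medians of 1097 and 744 bp in D0 and 1329 and 668 bp in iPSCs. Their scores per kb were close, at 13.4 and 13.5 in D0 and 11.4 and 11.6 in iPSCs. In D0 fewer of them overlapped H3K4me3 (10.99% against 20.04%) and fewer lay outside genes (49.1% against 60.9%). D12S+ went the other way in both, with 11.9% against 7.48% for H3K4me3 and 57.8% against 54.8% outside genes, and in D6T- (13.0% against 13.1%) and iPSCs (15.3% against 14.99%) the H3K4me3 shares were close.

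**Figure D3:**
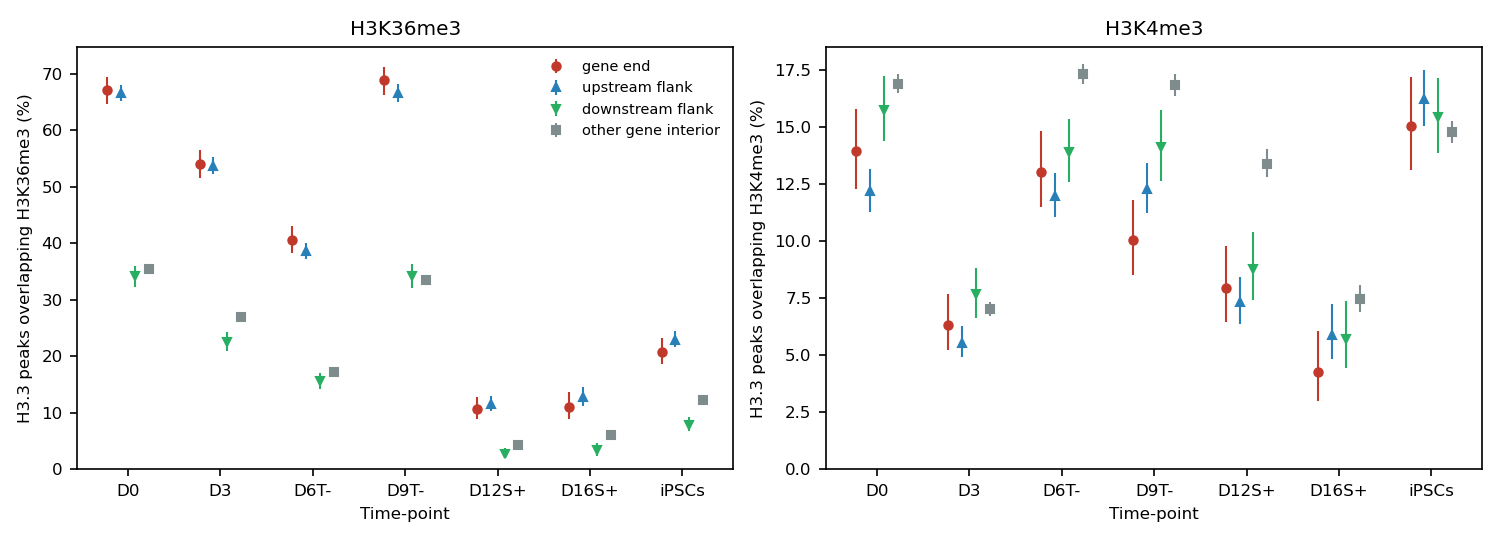
Share (%) of H3.3 peaks that overlap an H3K36me3 or H3K4me3 peak of the same time-point, by class of sequence, at 7 time-points, with 95% Wilson intervals as bars. For H3K36me3 gene ends lie beside the upstream flank and above the downstream flank and interior at every time-point, from 10.7% in D12S+ to 68.9% in D9T-, and H3K4me3 overlap of gene ends stays between 4.28% and 15.1%.

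Of 22367 protein-coding genes, 12603 had a window that could hold a gene-end peak, and 5739 (45.5%) were bound at their end in at least 1 library. In D0 and D3, 11.6% of eligible genes were bound at the end, and on the successful route 12.3% (D6T-), 10.1% (D9T-), 8.14% (D12S+) and 5.34% (D16S+). The share was 9.4% in iPSCs, 8.04% in ESD3, and 9.89%, 10.3%, 13.6% and 11% in the unsuccessful fractions D6T+, D9T+, D12S- and D16S-. In transdifferentiation it was 6.7% in MEF, 12.5% in D4, 4.71% in cKit+ and 3.78% in cKit-. The gene-end share of TSS-distal peaks did not separate the routes: successful minus unsuccessful was -0.337, -0.317, 0.734 and -0.181 percentage points at D6, D9, D12 and D16 (p = 1, exact permutation test). With 4 days the smallest p is 2 of 16 sign assignments, so the test cannot pass 0.05.

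Genes bound at the end carried H3K36me3 at the gene end, and H3K4me3 at their promoter, more often than the other eligible genes at all 7 time-points, as a description without a test. An H3.3 peak at any annotated end of a gene counted, and the number of windows per gene was not held equal. Genes bound in 8 or more libraries, in 1 to 7 and in none had means of 3.22, 1.97 and 1.67 windows. H3K36me3 lay at the end of 40.3% of eligible genes in D0, of 73.4% (95% Wilson interval 71.04 to 75.56) of the 1464 genes with a gene-end H3.3 peak and of 35.9% (35.1 to 36.8) of those without. In iPSCs the shares were 9.59%, 25.2% (22.8 to 27.8) and 7.97% (7.49 to 8.48). At the time-points between, H3K36me3 marked the end of 28.7% (D3), 20.6% (D6T-), 41.1% (D9T-), 4.98% (D12S+) and 5.85% (D16S+) of eligible genes, against 62.0%, 45.5%, 76.0%, 14.2% and 17.8% of those with a gene-end H3.3 peak. Among genes with H3K4me3 at their promoter alone, within 1 kb of a TSS, H3K36me3 marked 76.2% of ends with and 48.2% without an H3.3 peak in D0, and 26.7% and 11.01% in iPSCs. H3K4me3 marked the promoter of 94.3% of bound and 71.9% of unbound genes in D0.

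Most genes were bound in few libraries, where a peak at any annotated end of the gene counted. Of the 5739 genes, 1681 were bound at the end in 1 library only, 422 genes (3.35% of those eligible) in 8 or more, 16 genes in 13 or more and 1 gene in 15. That number was 979 when a gene counted as bound wherever a peak covered its end, 131 at most downstream ends only and 101 with an equal number of peaks per library. The 422 genes had a median of 3 windows per gene, against 1 for genes bound in none, so they offered more sequence to a peak. Another protein-coding gene ended on the opposite strand within 1 kb of 14.5% of them, of 10.8% of genes bound in 1 to 7 libraries and of 4.43% of genes bound in none. Median GC content of the windows was 45.4%, 44.4% and 42.5% in the same order.

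Regions recurred more or less than the flanks depending on how a library was counted. By midpoint, 6.48% of the 6463 regions were found in 8 or more libraries, against 13.0% of upstream, 13.5% of downstream and 10.2% of interior regions. A peak whose midpoint shifts out of the window of 1100 bp is lost to this count. When any H3.3 peak over the region counted, the shares were 33.7%, 22.5%, 26.3% and 11.6%, and 208 gene-end regions (3.22%) had a peak in all 16 libraries. Gene-end regions were also longer, with a median of 1209 bp against 952, 1098 and 818 bp.

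**Figure D4:**
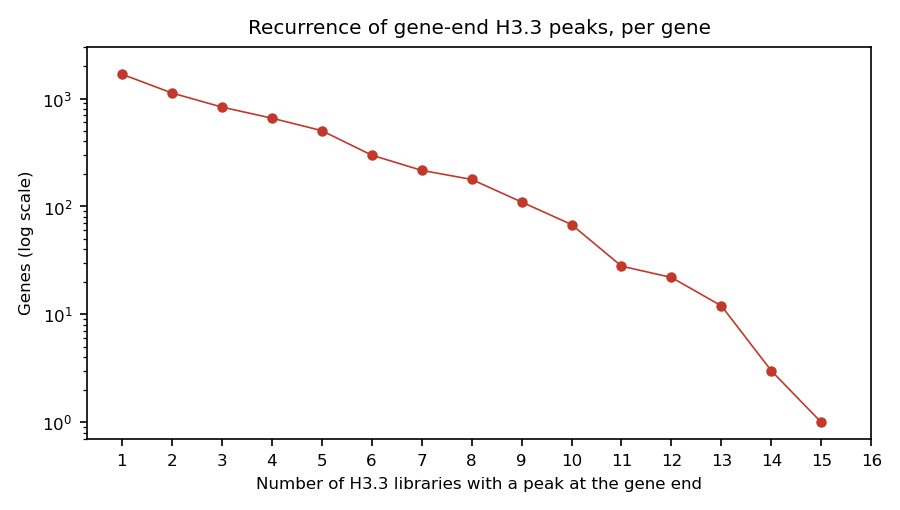
Number of genes (log scale) against the number of the 16 H3.3 libraries with a peak at the gene end, with 1 point per number of libraries. Of 5739 bound genes 1681 are bound in 1 library and 422 in 8 or more.

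The 6 genes bound at their end in most libraries were Pcnp, 1700081L11Rik, Zmynd8, Jarid2, Vps29 and Sars. Their counts pool all annotated ends of a gene, which lie kilobases apart in Pcnp and Zmynd8. The single end bound in most libraries had 7 in Pcnp, 11 in Jarid2 and 8 in each of the others. Pcnp, which encodes a PEST-containing nuclear protein, was bound in 15 of 16 libraries. Its score per kb was 8.41 in cKit+ (lowest), 15.6 at the median and 20.8 in D6T- (highest). Only cKit- had no peak at any of its ends. H3K36me3 overlapped its end at 6 of 7 time-points. Jarid2, a partner of Polycomb repressive complex PRC2, was bound in 14 libraries, among them all 12 of reprogramming. Its score per kb ran from 9.80 (cKit+) over a median of 13.6 to 18.4 (D16S-), and neither MEF nor cKit- had an overlapping peak.

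Zmynd8, a chromatin reader, was bound in 14 libraries with scores per kb of 7.62 (cKit+), 14.2 (median) and 21.2 (D12S-). 1700081L11Rik was also bound in 14, with a lowest score per kb of 8.18 (cKit+) and a median of 14.3, highest in D16S-, and with input density of up to 2.14 times the library median. The 2 libraries without a member there, D6T- and iPSCs, had an H3.3 peak that overlapped the window with its midpoint outside. Vps29, a subunit of the retromer that sorts endosomal cargo, was bound in 13 libraries, from 10.9 (cKit-) over 15.0 to 17.3 (D16S-). Sars, the seryl-tRNA synthetase, was bound in 13, with 12.6 in ESD3, 15.0 at the median and 19.6 in D12S-. For each of these 6 genes H3K36me3 lay at the end at 6 or 7 of 7 time-points and H3K4me3 at the promoter at 7 of 7.

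Gene ends bound in the fibroblast and unsuccessful libraries but not in the pluripotent ones numbered 69 (0.547% of eligible genes), and 14 to 229 under other rules for a bound end. These had a gene-end peak in D0, D3 and at least 3 of the 4 unsuccessful fractions and none in D16S+, iPSCs or ESD3. For 51 of them (73.9%) no H3.3 peak of any position overlapped the window in those 3 libraries. H3K36me3 marked 88.4% (95% Wilson interval 78.8 to 94.0) of these ends in D0 and 31.9% (22.1 to 43.6) in iPSCs, beside 40.3% and 9.59% of all eligible genes. These genes were chosen for H3.3 peaks in D0 and other libraries. Of all genes bound at the end in the same library, 73.4% were marked in D0 and 25.2% in iPSCs. H3K4me3 lay at the promoter of 97.1% of them at both stages.

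The 6 with the highest D0 score per kb had the following values. Exosc7, a subunit of the RNA exosome, was bound in 8 libraries at 18.4 (D0), 16.5 (D3), 19.5 (D6T-), 18.7 (D9T+), 21.5 (D12S-), 17.4 (D16S-), 17.4 (MEF) and 17.0 (D4). No peak overlapped its end in D16S+, iPSCs or ESD3, whereas D9T-, D12S+ and D6T+ had an overlapping peak with its midpoint outside the window. Cdc40, a splicing factor, was bound in 9 libraries, with 18.2 in D0, 15.0 in D3, 15.6 in D9T- and no overlapping peak from D12S+ onward on the successful route. Slc25a46, a mitochondrial outer-membrane protein, was bound in 10, with 17.4 in D0 and 10.97 in D3, and likewise had none from D12S+ onward.

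Hsph1, a heat shock protein of the Hsp110 family, reached 21.2 in D0 and 13.8 in D12S+. D16S+ and iPSCs had a peak overlapping its window with the midpoint outside, so its absence there holds by midpoint only, whereas ESD3 had no overlapping peak. Secisbp2l, related to the selenocysteine insertion factor SECIS-binding protein 2, had 19.2 in D0 and was also bound in cKit+ (9.04) and cKit- (11.2). Tmem181b-ps had 25.9 in D0 and up to 32.2 in D6T+, but its input density reached 3.25 times the library median and overlapping peaks were present in D16S+ and ESD3.

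The opposite pattern, bound in iPSCs, ESD3 and at least 1 of D12S+ and D16S+ and in none of D0, D3 and MEF, was met by 68 genes (0.54%), and by 10 to 35 where peaks were filtered by fold, number or distance. For 35 of them (51.5%) no H3.3 peak overlapped the window in D0, D3 or MEF. H3K36me3 marked 61.8% (49.9 to 72.4) of these ends in D0 and 23.5% (15.0 to 34.9) in iPSCs, where it marked 25.2% of all genes bound at the end. Shcbp1, an SHC-binding protein of dividing cells, had 14.6 in D12S+, 15.3 in D16S+, 17.3 in iPSCs and 13.3 in ESD3, with no overlapping peak in the other 12 libraries. Dtwd2 had 13.6, 16.0, 22.3 and 17.0 in the same 4 libraries and likewise no peak elsewhere.

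Abo, a blood-group glycosyltransferase, was bound from D9T- (12.7) through D12S+ (19.3), D16S+ (17.1), iPSCs (15.7) and ESD3 (21.2), and in no other library. Zfp459, a zinc-finger gene, was bound in D16S+ (16.0), iPSCs (15.8) and ESD3 (13.7) only, without H3K36me3 at its end or H3K4me3 at its promoter at any time-point. Vsig2, an immunoglobulin-domain membrane protein, had 13.3, 16.0, 15.0 and 14.6 in D12S+, D16S+, iPSCs and ESD3, and 13.1 in D4, and a peak overlapped its window with the midpoint outside in D12S-, MEF and cKit+. Depdc5, of the GATOR1 complex that restrains mTORC1, had 13.3 in D12S+, 15.0 in iPSCs, 14.8 in ESD3 and 9.00 in D4, and an overlapping peak in D16S+.

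In transdifferentiation, 165 genes (1.31%) were bound at the end in D4 and in cKit+ or cKit- but not in MEF, and 131 of them (79.4%) had no overlapping peak in MEF. Lmo2, a hematopoietic LIM-domain factor, was bound in D4 (23.4) and cKit- (13.0) and in none of the 12 reprogramming libraries. Its peaks lay in the last coding exon, and Lmo2 was a delivered factor, as a human cDNA by the study's methods. Reads with over 2 mismatches to the mouse genome had been removed, and the part of tags from the delivered cDNA was not tested. Bysl, a ribosome biogenesis factor, had 19.5 in D4, 8.75 in cKit+ and 11.2 in cKit-, but an overlapping peak was present in all 16 libraries, MEF included. Rps24, a ribosomal protein gene with many processed copies, had 21.0 in D4 and 8.89 in cKit+, and Gm3435, of a multicopy family, 24.4 in D4 with an input density of up to 2.65 times the median. Both had an overlapping peak in MEF.

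**Figure D5:**
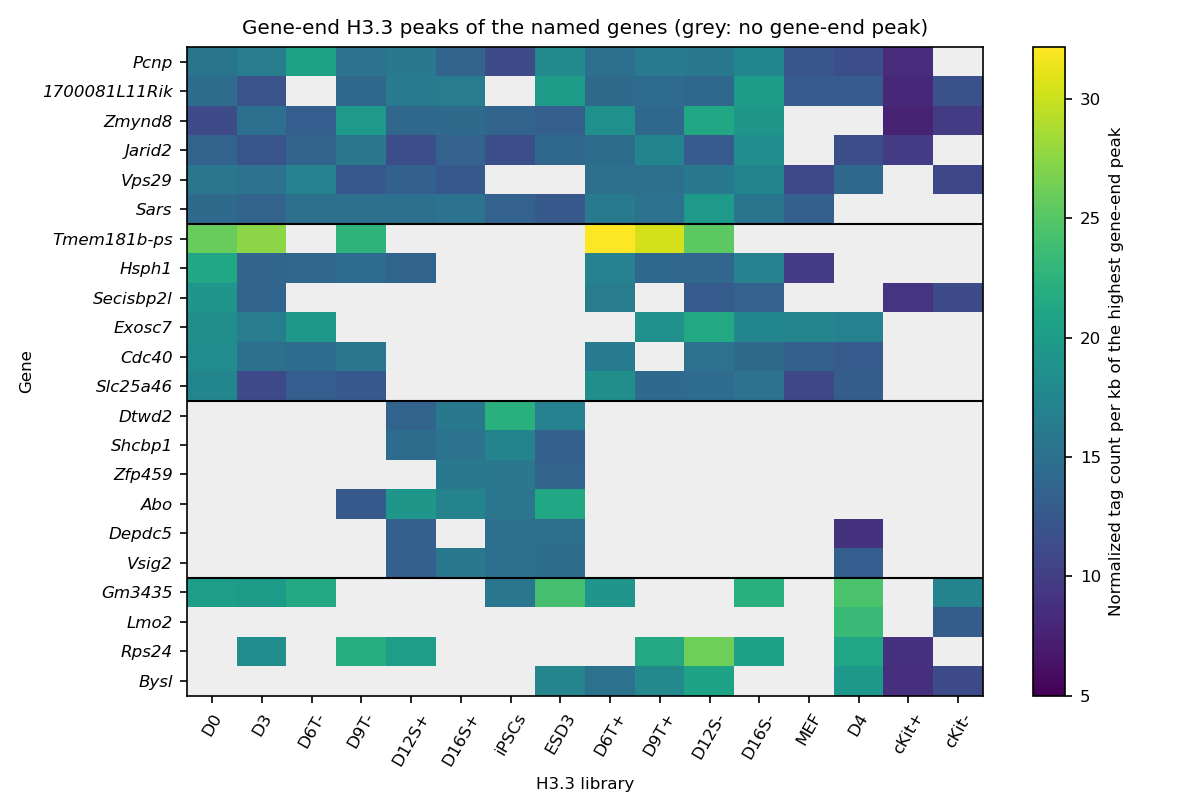
Score per kb (normalized tag count per kb of peak) of the highest gene-end H3.3 peak of 22 named genes in each of the 16 libraries, where grey is a library without a gene-end peak and black lines separate the recurrent genes and those of each stage pattern. Pcnp is filled in 15 libraries, Shcbp1 and Dtwd2 in D12S+, D16S+, iPSCs and ESD3 only, and Lmo2 in D4 and cKit- only.

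Gene lists for cell types and functions were then read against the share of all eligible genes. Of 37 eligible fibroblast and mesenchymal genes, 10 (27.03%, 95% Wilson interval 15.4 to 43.0) were bound at the end in D0 and 12 (32.4%, 19.6 to 48.5) in D3, beside 11.6% of all eligible genes in each. The unsuccessful fractions had 9 in D6T+ (24.3%, 13.4 to 40.1, beside 9.89%), 11 in D9T+ (29.7%, 17.5 to 45.8, beside 10.3%), and 7 each in D12S- and D16S- (18.9%, 9.48 to 34.2, beside 13.6% and 11%). The successful fractions had 3 in D6T- (8.11%, 2.80 to 21.3, beside 12.3%), 2 in D9T- (5.41%, 1.495 to 17.7, beside 10.1%) and 4 in D12S+ (10.8%, 4.29 to 24.7, beside 8.14%), and D16S+, iPSCs and ESD3 had 0, which allows a share of up to 8.11%. An absence beyond the background was not detectable with 37 genes in D16S+ and ESD3, where 5.34% and 8.04% of all eligible genes were bound. In iPSCs the background of 9.4% lay above that limit and just within the 95% Wilson interval of 0 to 9.41%. The cKit+ library had 11 (29.7%, 17.5 to 45.8) beside a background of 4.71%, and D4 had 3 beside 12.5%. By the study's methods the transduced cells were grown with OP9 stromal cells. The part of stromal or unconverted cells in the cKit+ count was not tested.

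The members bound in most libraries were Cald1, the actin-binding caldesmon, and Prrx1, a mesenchymal homeobox factor, with 7 each. Cald1 had a score per kb of 16.8 (D0), 14.4 (D3), 17.9 (D6T-), 13.4 (D9T-), 13.5 (D12S+), 16.9 (D9T+) and 8.56 (cKit+). Prrx1 had 13.2 (D3), 12.4 (D12S+), 15.4 (D6T+), 13.8 (D9T+), 14.7 (D12S-), 15.1 (D16S-) and 11.49 (cKit+). Overlapping peaks with the midpoint outside the window were present for Cald1 in D6T+, D12S-, D16S-, MEF and D4, and for Prrx1 in D0, D6T-, D9T-, MEF, D4 and cKit-. Neither gene had an overlapping peak in D16S+, iPSCs or ESD3.

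Of 29 eligible pluripotency genes, 2 were bound at the end in D0 (6.90%, 1.91 to 22.0, beside 11.6%), 8 in D9T- (27.6%, 14.7 to 45.7, beside 10.1%), 10 in D16S+ (34.5%, 19.9 to 52.7, beside 5.34%), 9 in iPSCs (31.0%, 17.3 to 49.2, beside 9.4%) and 7 in ESD3 (24.1%, 12.2 to 42.1, beside 8.04%). D3 had 2 (6.90%, beside 11.6%), D6T- 4 (13.8%, beside 12.3%) and D12S+ 5 (17.2%, beside 8.14%). The unsuccessful fractions had 1 in D6T+ (3.45%, beside 9.89%) and 3 in D9T+ (10.3%, beside 10.3%). D12S- had 5 (17.2%, beside 13.6%) and D16S- 2 (6.90%, beside 11%). D12S+ and D12S- thus had the same share, and its interval of 7.6 to 34.5% includes the background of each. Etv5, an ETS factor, was bound in D3 (12.8), D9T- (12.6), D12S+ (17.4), D16S+ (18.1), iPSCs (13.8) and ESD3 (15.2), and D6T-, D9T+, D12S-, D16S- and D4 had an overlapping peak with its midpoint outside the window. Nanog, a core pluripotency homeobox factor, was bound in D9T- (17.3), D12S+ (16.8), D16S+ (22.0) and D12S- (11.4), and in iPSCs and ESD3 a peak overlapped its window with the midpoint outside. Terf1, a telomere-repeat binding protein, was bound in D6T- (13.7) and D9T- (12.0) only. Gtsf1 had no gene-end peak, though a peak overlapped its window in iPSCs and ESD3, and Adcy7, Twist1, Foxd3 and Otx2 had no window over 5 kb from a TSS.

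Housekeeping genes were bound at the end at 3 to 6 of 15 eligible genes in each of the 12 reprogramming libraries. D0 had 5 (33.3%, 15.2 to 58.3, beside 11.6%) and D16S+ 6 (19.8 to 64.3% by Wilson interval, beside 5.34%). Vps29 (13 libraries) and Rab7 (10), a late-endosome GTPase, led the list. Of 22 epithelial genes, 5 were bound in D16S- (22.7%, 10.1 to 43.4, beside 11%), 4 in D12S- (18.2%, 7.31 to 38.5, beside 13.6%) and 4 in ESD3 (the same share, beside 8.04%). D0, D6T+, D9T+, MEF, D4 and cKit- had 0, which allows a share of up to 13.6%, above the background in each. Krt8, a simple-epithelium keratin, was bound in 5 libraries. Of 28 hematopoietic genes, 6 were bound in cKit- (21.4%, 10.2 to 39.5, beside 3.78%) and 8 in D0 (28.6%, 15.3 to 47.1, beside 11.6%). The cKit+ and D4 libraries had 3 each (10.7%, 3.71 to 27.2, beside 4.71% and 12.5%). D12S+ and iPSCs had 0, which allows a share of up to 10.7%, above their backgrounds of 8.14% and 9.4%. Meis1, a homeobox factor, was bound in 8 libraries with input density up to 2.39 times the median, and Bmi1, a Polycomb protein, in 6.

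Of 22 cleavage, polyadenylation and termination factors, 3 to 6 were bound at their own end in the 12 reprogramming libraries and 1 or 2 in those of transdifferentiation. D0 had 3 (13.6%, 4.75 to 33.3, beside 11.6%), D12S- 5 (22.7%, 10.1 to 43.4, beside 13.6%) and D9T- the most with 6 (27.3%, 13.2 to 48.2, beside 10.1%). Papola, the poly(A) polymerase, was bound in 13 libraries, from 8.50 (cKit+) over 13.1 to 15.0 (D12S-), and Cstf1, of the cleavage stimulation factor, in 6. Of 20 genes for H3.3 deposition and H3K36 methylation, 3 to 7 were bound in the reprogramming libraries, from 3 in D0 (15%, 5.24 to 36.04, beside 11.6%) to 7 in D6T- (35%, 18.1 to 56.7, beside 12.3%). Dek, a chromatin protein linked to H3.3, and Whsc1, an H3K36 methyltransferase, led with 9 each. Zinc-finger genes, chosen by symbol, followed the background: 32 of 272 (11.8%, 8.46 to 16.1) in D0 beside 11.6%, and 8 (2.94%) in 8 or more libraries beside 3.35%. Zscan22 (13 libraries, 10.1 to 21.7) and Zfp668 (12 libraries, 9.79 to 15.6) were the most recurrent.

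D0 and D3 shared 542 bound gene ends (37.02% of D0, 37.07% of D3), where 11.6% of all eligible genes were bound in each. The iPSC and ESD3 libraries shared 376 (31.7% of iPSCs, beside 8.04% of all eligible genes bound in ESD3, and 37.1% of ESD3, beside 9.4%). D0 and MEF, which are both starting fibroblasts, shared 319 (21.8% of D0, beside 6.7%, and 37.8% of MEF, beside 11.6%), and D0 and iPSCs 324 (22.1% of D0, beside 9.4%, and 27.3% of iPSCs, beside 11.6%).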

How the data were processed

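ChIP-seq peaks of 30 samples (16 H3.3, 7 H3K4me3, 7 H3K36me3) were used. The 16 input samples had no peak file of their own and were not analysed here. According to the study's methods, the authors aligned reads to mm9 with STAR, removed reads with over 2 mismatches or several loci, and called peaks per library against input with HOMER findPeaks in histone mode, with a required fold of 2 for H3.3. Per the file headers, the fold was 4 for the other marks, with a p limit over input of 0.0001. Versions are not given in the sources used here. The deposited score is a signal, the tag count normalized by the authors to 10 M tags, and the deposited fold is a ratio of tags over input.

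From these files, with Python 3.11.15, numpy 2.4.6, pandas 2.3.3 and scipy 1.17.1, peaks were placed by midpoint against GENCODE vM1, leaving 1020733 H3.3 peaks after those on unplaced sequence were dropped. Overlap with a mark meant 1 bp or more. Median values within each library were compared between classes by exact sign-flip permutation tests, with Benjamini-Hochberg adjustment. A gene was called bound when a peak midpoint lay in a window of one of its transcript ends. The tests were checked on simulated data.

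Named genes were the 6 bound in most libraries, the 6, 6 and 4 with the highest D0, iPSC and D4 score per kb among genes of the 3 stage patterns, the top 2 of each gene list, and 7 genes from the study's text. Ties went to the higher median score, or in the lists to the symbol. One gene that this rule names is not reported here. The PRC2 genes and the removal of high-input peaks and undefined transcript ends were chosen after seeing the data. Members and lists were chosen with earlier results of these data known. Alternatives covered peak number, fold, transcript ends, TSS set and distance, chromosomes, overlap rule, peak length and libraries left out.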

Additional observations from a re-analysis of the deposited data

Results flagged for a closer look

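Input density, which the comparisons above use only within the fold and beside single genes, was high under some gene-end peaks. Relative to the median over all H3.3 peaks of the library, input density was 5.66 under the Gm13145 end in iPSCs, 5.18 under the Gm6483 end in D16S+ and 5 under the Rnf41 end in D6T-. The highest value in the starting fibroblast libraries D0 and MEF was 2.82, and 26 of 16749 gene-end peaks of the other libraries, at 13 genes, exceeded it. The highest score per kb of all gene-end peaks, 53.4 at Gm6483 in iPSCs, came with an input density of 5.09 times the median, and the cause was not tested. Removing the 93 gene-end peaks with input over 2 times the median (0.487% of all) turned the sign of the H3K36me3 difference from the upstream flank, which was near 0 (-0.018 percentage points).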

How the results depend on the processing

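No paired analysis was possible because replicate numbers pair no samples, with 1 library in each group, and the tests above used differences within a library or a day. The higher density of H3.3 peaks at gene ends kept its direction and its call under every alternative run, at log2 ratios of 0.28 to 0.50 to the upstream flank, 0.34 to 0.59 to the downstream flank and 1.05 to 1.36 to the interior. The removal of high-input peaks and of undefined transcript ends was chosen after seeing the data. All tests are exact permutation tests, and the cause of a change was not tested unless named.

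When every library was cut to the same number of best-scoring peaks, score per kb differed from the upstream flank by 0.0031 and from the interior by -0.023 (adjusted p = 0.0246, exact permutation test) on the log2 scale. Genes bound in 8 or more libraries then numbered 101, those of the fibroblast pattern 14, of the pluripotent pattern 34, of the transdifferentiation pattern 59 and of any library 3489. With a fold of at least 4, which left too few gene-end peaks in cKit+ (0) and cKit- (3), score per kb against the upstream flank was 0.0099, fold against the upstream flank -0.0086 and against the interior -0.00045. H3K36me3 overlap against the upstream flank was -0.064 percentage points, H3K4me3 overlap 0.108, -0.637 and -2.85 against the upstream flank, downstream flank and interior, and the route difference 0.142. The gene counts in the same order were 26, 14, 10 and 0, the last because neither cKit library could count.

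H3K36me3 overlap against the upstream flank turned negative with 0.5 of the peak covered (-1.42), peaks of at most 1 kb (-2.36), most downstream ends (-3.96), undefined ends removed (-1.97), 10 kb from a TSS (-0.462), high-input peaks removed (-0.018) and D6T- and D12S+ left out (-0.185). Without D6T- and D12S+ it was 24.0 against the downstream flank and 21.5 against the interior, and 5 time-points cannot go below p = 0.0625 in the exact permutation test. With peaks of at most 1 kb, H3K4me3 overlap was -1.31 against the downstream flank and -2.09 against the interior. With protein-coding TSSs only it was 0.209 against the upstream flank and -2.80 against the interior. Fold against the upstream flank, near 0 throughout, was -0.00035 on autosomes, -5.4e-05 with protein-coding TSSs, -0.0030 at 10 kb and -0.0014 without undefined ends. At 10 kb it was -0.0032 against the downstream flank and 0.014 against the interior, and length against the downstream flank was 0.015. At most downstream ends score per kb was 0.0011 against the downstream flank and 0.00073 against the interior.

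Counts of bound genes moved most. Where a peak covered the end itself, 979 genes were bound in 8 or more libraries, with 229 of the fibroblast and 290 of the transdifferentiation pattern. At most downstream ends these were 131, 27 and 80. At 10 kb from a TSS they were 190, 30 and 105, with 35 of the pluripotent pattern and 3223 in any library.

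Leaving out each library in turn gave H3K36me3 differences of -0.344 to 0.381, 19.7 to 24.2 and 17.0 to 22.1 points against upstream flank, downstream flank and interior. For H3K4me3 they were -0.432 to 0.236, -1.72 to -1.11 and -3.89 to -2.72, for the route -0.278 to 0.0786, and for fold -0.00086 to 0.0037 and -0.00021 to 0.0049 against the flanks. Peak calls of libraries with few tags in peaks, above all cKit+, cKit-, D16S+ and the late H3K36me3 libraries, limit what an absent peak can mean.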

Other observations

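Besides Jarid2, other genes of Polycomb repressive complex PRC2 were looked up after the values were seen, and no test was run on them. As above, each count of libraries pools all annotated ends of a gene. Mtf2, an accessory subunit, was bound at its end in 13 of 16 libraries, with a score per kb of 14.8 in D0, a median of 14.0 and 18.4 in D16S+, and had no gene-end peak in D16S-, MEF or cKit+. Aebp2, another accessory subunit, was bound in 13, at 12.2 in D0, 13.6 at the median and 19.0 in ESD3, and had none in D6T-, D12S- or cKit-. Among the core subunits the methyltransferase Ezh2 was bound at its end in 2 libraries, Suz12 in 1 and Eed in 5, and the histone-binding subunits Rbbp4 and Rbbp7 in 4 and 2. The accessory subunit Phf19 was bound in none. Genes bound at the end in 13 or more libraries made up 0.127% of eligible genes.

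High scores per kb did not always come with high input: the gene-end peak of Mat2a, which encodes a methionine adenosyltransferase, had 33.3 in D6T- at an input density of 1.44 times the library median.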
